A study of Mus musculus with 14 samples.

Results

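The 38 genes described here encode enzymes and regulators that make, salvage and balance purine and pyrimidine nucleotides. They were taken by symbol from the deposited annotated gene table and joined by gene identifier to both deposited count tables, and 38 of 38 were found among 53700 genes. All 38 passed the filter on low counts in each comparison. The members were sorted into 9 groups by the step they catalyse, and 75 other genes of nucleotide interconversion, breakdown, pool sanitizing, transport and folate supply were read beside them.

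The study made 14 poly-A RNA libraries of NSPCs (neural stem and progenitor cells) from adult mice, all of the C57BL/6 strain. Quiescent NSPCs were treated with BMP4 (n = 4) and proliferating NSPCs with FGF and EGF (n = 4), and all 8 were labelled as coming from a wild-type mouse. In the second experiment, NSPCs kept in FGF and EGF received an adeno-associated virus that carried GFP (the GFP control, n = 3) or one that carried Cre and GFP (the Yme1l KO, n = 3). The design text calls the last group Yme1lKO. Its samples and those of the GFP control are nonetheless both labelled as coming from a wild-type mouse. No label names a floxed allele, the promoter that drives Cre, or the age or sex of the animals. Nor do the labels say whether libraries came from separate animals or cultures. A p-value here weighs a difference against the variation among these libraries, and that variation may be technical.

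A dividing cell makes purines from PRPP (phosphoribosyl pyrophosphate), amino acids and folate-bound carbon until the first complete purine nucleotide, IMP, is formed, which is then turned into AMP or GMP. Pyrimidines are built as a ring first, then joined to PRPP to give UMP and later CTP. Ribonucleotide reductase converts ribonucleotides to the deoxynucleotides used for DNA, and salvage enzymes recover free bases and nucleosides. Demand is high in S phase, and several of these enzymes are known to be made mainly in cycling cells, while mitochondria keep separate salvage kinases for their own DNA.

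Libraries held 6475092 to 10320727 estimated counts. Yme1l1 (ENSMUSG00000026775, chromosome 2, 23046381 to 23089272 on GRCm39), the targeted gene, was read first as a check of the labels: it stood at 135, 124 and 121 CPM in the GFP control and 25.7, 25.6 and 22.9 CPM in the KO, and fell by 2.36 (SE 0.07, adjusted p = 5.89e-11) on the log2 scale. CPM is the estimated count scaled to a fixed library size after TMM. TPM is the length-normalised level, used to compare or sum genes, for marker levels and in an alternative test. The neural stem and progenitor markers summed to 5740.0 to 5910.0 TPM in the proliferating, 6170.0 to 7460.0 in the quiescent, 5510.0 to 5720.0 in the GFP control and 3910.0 to 4330.0 in the KO libraries, and 11 of the 12 were present, the exception being Prom1, which was below 1 TPM in every library. Of the 11 tested in the KO, 5 were lower and 1 higher at an adjusted p under 0.05 (54.5%, beside 51.6% of all genes). Their median log2 fold change was -0.02. Fabp7 stood at 2208 to 2369 TPM in the GFP control and 1021 to 1354 TPM in the KO. Vim stood at 1748 to 1868 and 1430 to 1502 TPM. Sox9 lay the other way, at 38.4 to 39.6 and 43.9 to 52.6 TPM. Of 8 microglial markers 6 were below 1 TPM in every library, and the summed level was 0 to 0.534 TPM in the proliferating, 3.29 to 6.08 in the quiescent, 2.33 to 3.79 in the GFP control and 3.34 to 5.47 in the KO libraries. Of 8 vessel and fibroblast markers 6 were below 1 TPM, and their sums were 1.12 to 2.09, 3.58 to 4.64, 0.216 to 0.429 and 0.131 to 0.292 TPM in the same order. Both sums were higher in every quiescent than in every proliferating library, and in each most of the quiescent level was 1 gene. Tmem119 of the microglial list stood at 0 to 0.345 TPM in the proliferating and 2.16 to 4.32 TPM in the quiescent libraries. Kdr of the vessel list stood at 0.526 to 0.926 and 2.77 to 3.87 TPM. Markers of neurons summed to 29.7 to 38.4, 23.1 to 48.3, 520.0 to 576 and 535 to 562 TPM in the same order. Of these 8 markers 5 were below 1 TPM in every library, and Map2 made up most of the GFP control and KO sums. Map2 stood at 12.74 to 25.12 TPM in the proliferating and 13.98 to 41.77 TPM in the quiescent libraries. It stood at 502.9 to 558.3 TPM in the GFP control and 514.8 to 545.1 TPM in the KO. These groups come from another table than the proliferating and quiescent libraries, and levels were not compared between the tables, for a reason given below. Markers of the oligodendrocyte lineage summed to 12.3 to 17.3, 20.5 to 24.7, 22.1 to 22.8 and 26.9 to 29.1 TPM in the same order. Those of ependyma summed to 43.1 to 46.5, 34.1 to 38.3, 10.8 to 14.1 and 13.6 to 20.4 TPM. Mog, Stmn2, Cx3cr1, C1qa, C1qb, Cldn5, Dcn and Pdgfrb had 0 counts in all 14 libraries. The 14 cell cycle markers summed to 1560.0 to 1670.0 TPM in the proliferating and 246 to 275 TPM in the quiescent libraries, and to 2170.0 to 2310.0 TPM in the GFP control and 814 to 1240.0 TPM in the KO. All 14 fell in both comparisons (median log2 fold change -2.55 in quiescence and -1.04 in the KO). The groups did not overlap in CPM for 13 of the 14 in quiescence, beside 59.7% of all genes tested. The exception was Mki67, at 20.1, 5.30, 19.3 and 5.28 CPM in the proliferating and 4.36, 5.37, 1.63 and 3.07 CPM in the quiescent libraries. The part of the cell cycle markers in the results that follow was not tested, and in bulk RNA fewer cycling cells and less RNA per cell cannot be told apart.

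Most of the 38 genes were lower in quiescent than in proliferating NSPCs. In quiescence 31 of 38 fell (81.6%) and 3 rose, at an adjusted p under 0.05 in edgeR's quasi-likelihood test, and the fall was at least 2-fold for 19. Over all 12245 genes tested, 65.4% were called in either direction and 35.5% were lower. The median log2 fold change of the members was -0.94, beside -0.01 for all genes tested. In the KO, 26 of 38 fell (68.4%) and 4 rose, and the fall was at least 2-fold for 4. Over all 12625 genes tested in that comparison, 51.6% were called and 26.2% were lower. The members' median was -0.54, beside 0.00 for all genes. The groups did not overlap in CPM for 33 members in quiescence, beside 59.7% of all genes tested, and for 32 in the KO, beside 61.4%.

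Of the 38, 25 fell in both comparisons, beside 18.4% of the 11477 genes tested in both. Prpsap1 and Uckl1 rose in both, Cmpk1 rose in quiescence and fell in the KO, and Cmpk2 did the opposite. Prps2, Pfas, Aprt, Uck1 and Upp1 passed the test as lower in quiescence and did not pass it in the KO. Tk2 passed as higher in the KO and did not pass in quiescence, and Dguok, Ctps2 and Prpsap2 passed in neither. Whether a gene differed between the comparisons was tested separately and is given after the role groups. KO replicate 3 was the lowest of the 3 KO libraries for 24 of the 26 members that fell. Without it 26 members were still lower, the members' median was -0.47, and the largest shift in a log2 fold change was 0.20, for Tk1.

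**Figure D1:**
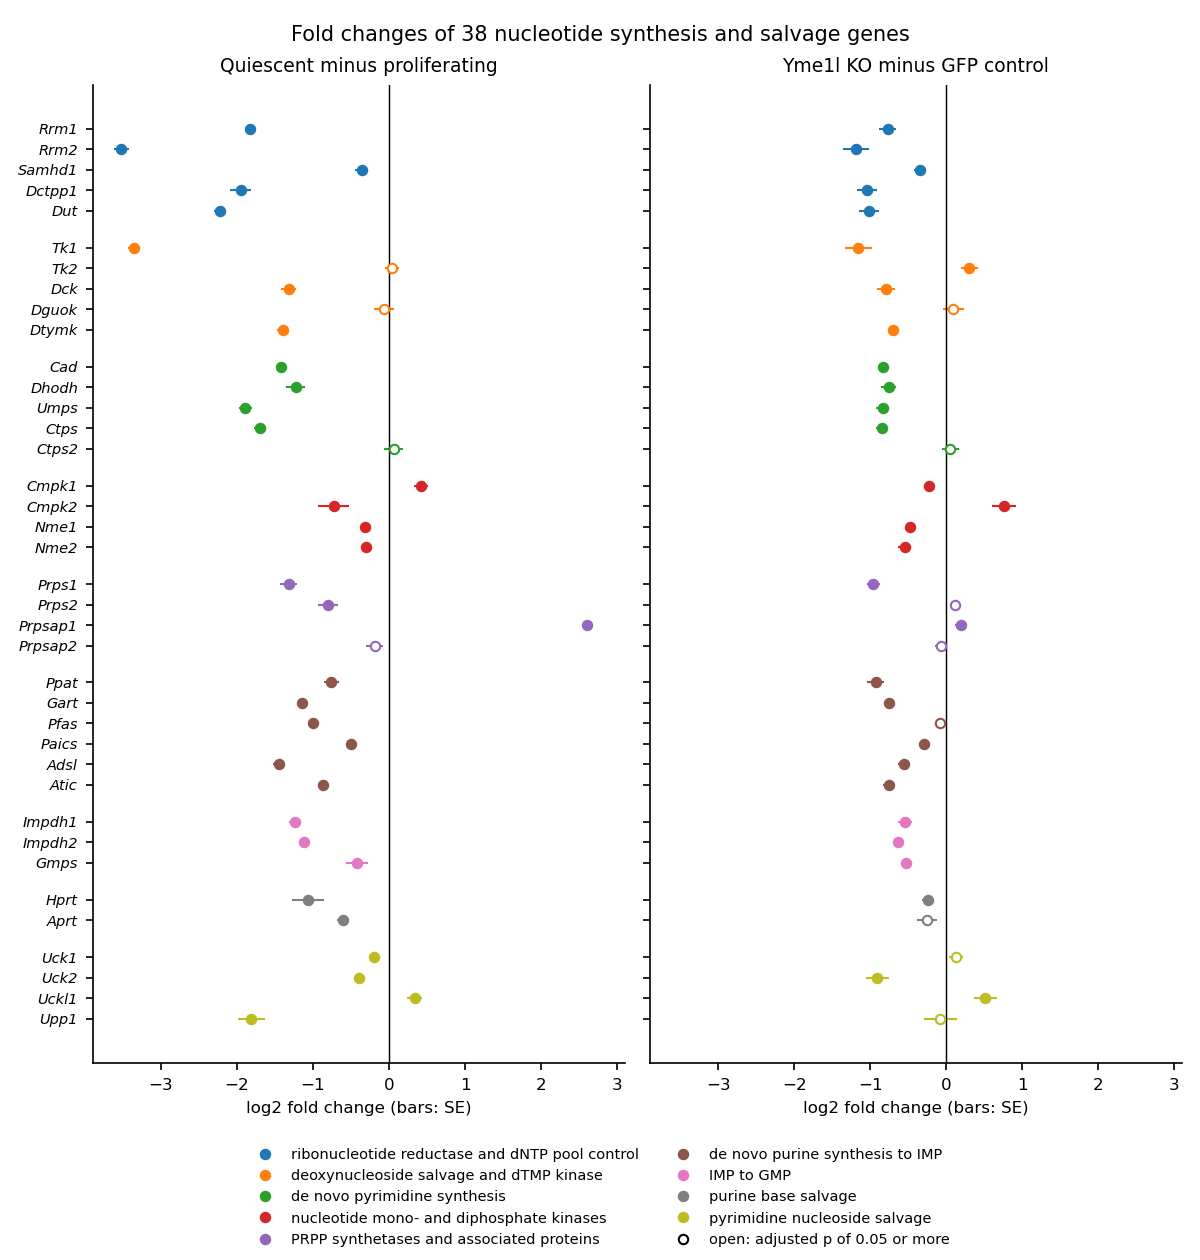
Log2 fold change (x axis, bars give the SE) of each of the 38 genes (y axis), coloured by role, for quiescent minus proliferating on the left and Yme1l KO minus GFP control on the right, with open symbols for an adjusted p of 0.05 or more. Rrm2 and Tk1 lie farthest to the left in both panels, at -3.52 and -3.35 and at -1.19 and -1.16, and Prpsap1 lies at 2.60 in the left panel.

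All 5 genes of ribonucleotide reductase and deoxynucleotide pool control fell in both comparisons (median -1.95 and -1.02). Rrm2 (ENSMUSG00000020649, chromosome 12, 24758240 to 24764145) encodes the small subunit that carries the radical of the reductase. Rrm2 stood at 113, 116, 106 and 129 CPM in the proliferating libraries and at 8.41, 11.1, 11.6 and 9.21 CPM in the quiescent libraries. It thus fell by 3.52 (SE 0.10, adjusted p = 4.23e-14) on the log2 scale, or 11.4-fold, with no quiescent library near a proliferating one. The GFP control libraries held 230.4, 231 and 231 CPM and the KO libraries 112, 117 and 73.9 CPM. The KO libraries were all below the controls, replicate 3 the lowest, and the fall was 1.19 (SE 0.17, adjusted p = 0.00246), or 2.28-fold.

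Rrm1, the large catalytic subunit, is the partner of Rrm2. Rrm1 stood at 184, 177, 155 and 176 CPM in the proliferating libraries and at 44.8, 53.95, 49.6 and 45.2 CPM in the quiescent libraries. The fall of 1.83 (SE 0.07, adjusted p = 2.52e-12) stood beside 3.52 for Rrm2. Its values in the second table were 342, 337 and 345 CPM in the GFP control and 215, 224 and 162 CPM in the KO. The groups stayed apart there too, with a fall of 0.77 (SE 0.11, adjusted p = 0.000721). Dut, the dUTPase that keeps uracil out of DNA and supplies dUMP, fell by 2.23 (SE 0.07, adjusted p = 2.47e-13) in quiescence and by 1.02 (SE 0.13, adjusted p = 7.68e-05) in the KO. Dctpp1, a pyrophosphatase that clears dCTP and its analogs, fell by 1.95 (SE 0.14, adjusted p = 1.66e-07) and by 1.04 (SE 0.13, adjusted p = 2.23e-05). Samhd1, a phosphohydrolase that degrades deoxynucleotides, changed least of the 5. Samhd1 stood at 29.9, 30.7, 26.1 and 32.5 CPM in the proliferating libraries and at 21.2, 23.7, 24.9 and 23.2 CPM in the quiescent libraries. Its fall of 0.36 (SE 0.09, adjusted p = 0.00318) in quiescence and of 0.35 (SE 0.08, adjusted p = 0.0029) in the KO kept the groups apart in each, but neither call held with limma on log2(TPM + 1).

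Of the 5 genes of deoxynucleoside salvage and dTMP phosphorylation, the 3 whose proteins act in the cytosol or nucleus fell in both comparisons, and the mitochondrial kinases Tk2 and Dguok did not. Tk1 (ENSMUSG00000025574, chromosome 11, 117706352 to 117716918) encodes the thymidine kinase of S phase. Tk1 stood at 84.9, 92.2, 82.2 and 84.6 CPM in the proliferating libraries and at 8.41, 8.64, 8.62 and 7.95 CPM in the quiescent libraries. Its fall in quiescence was 3.35 (SE 0.08, adjusted p = 6.69e-15), or 10.2-fold, and the 4 quiescent values spanned less than 1 CPM. The 3 controls with GFP alone gave 84.2, 84.2 and 85.7 CPM, and the 3 KO libraries 40.04, 46.9 and 26.5 CPM. The fall in the KO was 1.16 (SE 0.18, adjusted p = 0.00187).

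Dck, the cytosolic deoxycytidine kinase, fell by 1.32 (SE 0.10, adjusted p = 8.7e-09) in quiescence and by 0.79 (SE 0.12, adjusted p = 0.000301) in the KO. Dtymk, which phosphorylates dTMP made by either route, fell by 1.40 (SE 0.08, adjusted p = 2.05e-10) and by 0.70 (SE 0.07, adjusted p = 4.74e-06). Tk2, the thymidine kinase of mitochondria, gave overlapping groups in the first comparison. Tk2 stood at 29.5, 31.7, 27.02 and 30.9 CPM in the proliferating libraries and at 35.2, 28.6, 27.5 and 31.5 CPM in the quiescent libraries. Its log2 fold change in quiescence was 0.04 (SE 0.09, adjusted p = 0.695). Levels of 16.1, 15.9 and 15.03 CPM were found in the GFP control and of 18.3, 18.2 and 21.3 CPM in the KO. There all 3 KO libraries lay above the controls and the gene rose by 0.30 (SE 0.11, adjusted p = 0.0294), a call that was lost without any 1 of the GFP control replicates or without KO replicate 3 (0.22 without the last), and with DESeq2 (0.29), limma (0.21) or all 14 libraries in 1 fit (0.27). Dguok, the mitochondrial deoxyguanosine kinase, had log2 fold changes of -0.07 (SE 0.13, adjusted p = 0.648) and 0.09 (SE 0.14, adjusted p = 0.634) and overlapping groups in both.

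**Figure D2:**
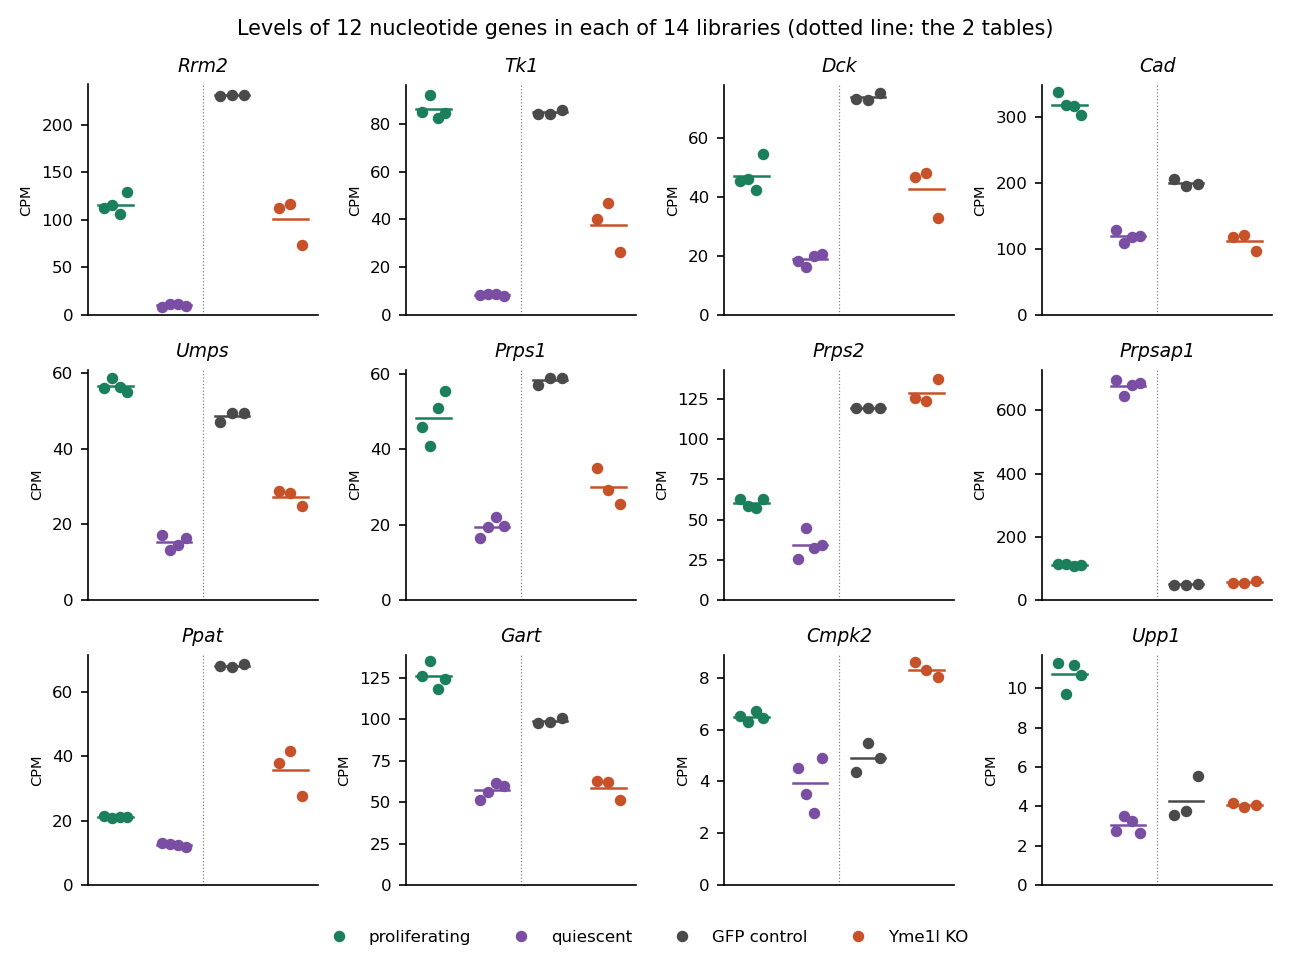
CPM (y axis, from 0) of 12 members in each of the 14 libraries, 1 point per library, with a bar at the group mean and a dotted line between the libraries of the separate tables. Rrm2 in quiescence lies between 8.41 and 11.6 CPM and Prpsap1 between 646 and 697 CPM, each apart from every proliferating library, while the Upp1 groups overlap in the second table.

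Promoter sequences are shown for Rrm2 and Tk1, the members that fell most in both comparisons, and for Rrm1, the partner subunit of Rrm2. That of Dtymk is also shown, because its window, like that of Impdh2, holds a match to each type of motif searched. Each runs 5′ to 3′ on the gene's strand from 250 bases before to 50 bases after a RefSeq start (GRCm38.p6, an older build than that of the count tables), with capitals on matches to the E2F-type motifs, spelled TTCCCGC in the first form and TTGGCGC in the second form, to the E-box, spelled CACGTG, and to the CCAAT box, each on either strand. The CCAAT box was added after results were known.
Rrm2 promoter (chr12:24708004-24708303, plus strand): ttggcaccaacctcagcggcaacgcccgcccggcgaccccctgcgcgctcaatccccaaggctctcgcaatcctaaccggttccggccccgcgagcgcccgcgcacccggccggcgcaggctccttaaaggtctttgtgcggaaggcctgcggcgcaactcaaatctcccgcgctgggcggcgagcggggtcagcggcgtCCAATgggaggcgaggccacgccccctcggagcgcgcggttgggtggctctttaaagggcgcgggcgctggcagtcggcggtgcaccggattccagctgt
Rrm1 promoter (chr7:102441445-102441744, plus strand): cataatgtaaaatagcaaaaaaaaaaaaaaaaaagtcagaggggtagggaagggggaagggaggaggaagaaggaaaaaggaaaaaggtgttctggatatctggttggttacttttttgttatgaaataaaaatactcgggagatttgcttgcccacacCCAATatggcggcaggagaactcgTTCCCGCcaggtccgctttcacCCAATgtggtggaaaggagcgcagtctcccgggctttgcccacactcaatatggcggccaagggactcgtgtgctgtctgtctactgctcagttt
Tk1 promoter (chr11:117825965-117826264, minus strand): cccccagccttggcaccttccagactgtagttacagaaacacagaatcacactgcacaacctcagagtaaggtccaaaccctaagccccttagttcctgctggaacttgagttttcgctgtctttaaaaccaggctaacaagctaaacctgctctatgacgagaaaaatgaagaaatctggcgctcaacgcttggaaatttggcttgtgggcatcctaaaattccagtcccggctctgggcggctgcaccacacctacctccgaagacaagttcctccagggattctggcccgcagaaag
Dtymk promoter (chr1:93801885-93802184, minus strand): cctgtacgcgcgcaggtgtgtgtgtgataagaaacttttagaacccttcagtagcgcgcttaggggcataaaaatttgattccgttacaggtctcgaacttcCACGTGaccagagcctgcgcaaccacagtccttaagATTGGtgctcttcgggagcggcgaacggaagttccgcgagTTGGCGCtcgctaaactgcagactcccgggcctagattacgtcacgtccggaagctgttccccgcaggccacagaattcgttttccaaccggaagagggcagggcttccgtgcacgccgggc
In Rrm1 the first E2F-type form begins 67 bases before the start, between copies of CCAAT at 91 and 45 bases before it. In Dtymk the E-box begins 148 bases, a CCAAT box on the other strand 112 bases and the second E2F-type form 72 bases before the start. The Rrm2 window holds 1 CCAAT, 50 bases before the start, and the Tk1 window holds none of the letters. RefSeq windows matched 36 of the 38 genes by symbol, all but Dhodh and Pfas. E2F-type letters were in 6 of the 36 (16.7%: Dtymk, Impdh2, Ppat, Prps1, Prps2 and Rrm1), beside 7.79% of 27025 genes with a window. The E-box was in 5 (13.9%: Atic, Dtymk, Impdh2, Nme1 and Paics), beside 8.09%, and CCAAT in 12 (33.3%), beside 41.1%. In Impdh2 the letters of a CCAAT box and an E2F-type match overlap. A match is a run of letters and says nothing of binding.

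Of the 5 genes of pyrimidine synthesis from small precursors, 4 fell in both comparisons and Ctps2 passed the test in neither. Cad (ENSMUSG00000013629, chromosome 5, 31212124 to 31235823) encodes the multifunctional protein for the first steps of the pathway. Cad stood at 337, 318, 316 and 304 CPM in the proliferating libraries and at 129.6, 109.7, 119 and 119.7 CPM in the quiescent libraries. The fall was 1.42 (SE 0.05, adjusted p = 2.21e-12). In the GFP control it stood at 205, 195 and 198 CPM and in the KO at 118, 122 and 97.5 CPM. The groups were apart again and the fall was 0.83 (SE 0.07, adjusted p = 1.97e-06). Dhodh, the dehydrogenase of the inner mitochondrial membrane that makes orotate, fell by 1.23 (SE 0.13, adjusted p = 3.67e-07) and by 0.76 (SE 0.10, adjusted p = 2.36e-05). Umps, which turns orotate into UMP, had the largest fall of the group in quiescence, 1.89 (SE 0.09, adjusted p = 1.76e-11), and fell by 0.84 (SE 0.08, adjusted p = 2.18e-06) in the KO. In the KO these genes fell by nearly the same amount, 0.76 to 0.85, with SEs of 0.07 to 0.10.

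Ctps and Ctps2 encode CTP synthases that catalyse the same reaction, the conversion of UTP to CTP. Ctps stood at 77.5, 83.5, 74.3 and 82.98 CPM in the proliferating libraries and at 21.3, 27.2, 24.9 and 23.9 CPM in the quiescent libraries. Ctps2 stood at 14.7, 14.5, 16.2 and 19.1 CPM in the proliferating libraries and at 17.1, 17.3, 15.9 and 16.6 CPM in the quiescent libraries. Ctps was thus lower in every quiescent library and fell by 1.70 (SE 0.08, adjusted p = 1.98e-11), while the Ctps2 groups overlapped (0.06 (SE 0.12, adjusted p = 0.663)). The KO gave the same division, with Ctps at -0.85 (SE 0.07, adjusted p = 1.37e-06) and Ctps2 at 0.05 (SE 0.11, adjusted p = 0.726).

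The nucleotide mono- and diphosphate kinases changed less, and the 2 UMP/CMP kinases moved against each other. Cmpk1 (ENSMUSG00000028719, chromosome 4, 114816533 to 114844438), the cytosolic UMP/CMP kinase, stood at 31.4, 25.5, 28.97 and 30.3 CPM in the proliferating and at 40.7, 40.5, 40.5 and 33.8 CPM in the quiescent libraries. It rose by 0.42 (SE 0.09, adjusted p = 0.000655) there, and quiescent replicate 4 was the nearest to the proliferating range. The GFP control libraries held 97.5, 90.4 and 91.04 CPM and the KO libraries 78.5, 83.02 and 76.2 CPM. It fell by 0.23 (SE 0.06, adjusted p = 0.00419) in the KO.

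Cmpk2, a mitochondrial UMP/CMP kinase known as an interferon-induced gene, was a low transcript, with 17 counts in its lowest quiescent library. Cmpk2 stood at 6.54, 6.29, 6.73 and 6.43 CPM in the proliferating libraries and at 4.53, 3.503, 2.77 and 4.88 CPM in the quiescent libraries. It fell by 0.73 (SE 0.21, adjusted p = 0.00631). Its values in the second table were 4.38, 5.47 and 4.88 CPM in the GFP control and 8.603, 8.28 and 8.03 CPM in the KO. All 3 KO libraries were above the controls, and it rose by 0.76 (SE 0.16, adjusted p = 0.00113). Nme1 and Nme2 encode the main nucleoside diphosphate kinases, neighbours on chromosome 11. Nme1 was lower in both comparisons at -0.32 (SE 0.06, adjusted p = 0.000193) and -0.48 (SE 0.07, adjusted p = 5.09e-05), and Nme2 at -0.30 (SE 0.05, adjusted p = 7.64e-05) and -0.55 (SE 0.08, adjusted p = 0.000179). Their values are uncertain, because the annotation also holds a read-through gene, Gm20390, that spans both and took a level of 267 TPM in proliferating cells beside 161 for Nme1 and 479 for Nme2. Gm20390 was itself lower, at -0.55 (SE 0.05, adjusted p = 6.28e-08) and -0.70 (SE 0.07, adjusted p = 4.24e-06). With the GC trend of each library removed, the fall in quiescence was 0.20 for Nme1 and 0.15 for Nme2, and the Nme1 calls were lost with limma on log2(TPM + 1).

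The genes of PRPP supply moved apart. Prpsap1 (ENSMUSG00000015869, chromosome 11, 116361671 to 116385028) encodes a PRPP synthetase-associated protein that joins the synthetase complex without catalytic activity and is described as restraining it. Prpsap1 stood at 112, 114, 109 and 111 CPM in the proliferating libraries and at 697, 646, 680.1 and 686 CPM in the quiescent libraries. It rose by 2.60 (SE 0.04, adjusted p = 1.62e-16), or 6.07-fold, and the lowest quiescent library was well above the highest proliferating one. In quiescent cells its mean level was 762 ± 6.37 TPM (SD, n = 4), the highest of the 38 genes and rank 205 among all genes, beside rank 1484 in proliferating cells. The 3 controls with GFP alone gave 48.04, 48.7 and 51.02 CPM, and the 3 KO libraries 55.1, 53.02 and 60.2 CPM. The rise there was 0.19 (SE 0.07, adjusted p = 0.0362), 1.14-fold, and this call was lost without any 1 of the GFP control replicates, without KO replicate 1 or 3, and with 6 of the 9 other settings tried, the value staying between 0.14 and 0.21. Its promoter window, shown because no other member rose as far, holds none of the letters searched.
Prpsap1 promoter (chr11:116490297-116490596, minus strand): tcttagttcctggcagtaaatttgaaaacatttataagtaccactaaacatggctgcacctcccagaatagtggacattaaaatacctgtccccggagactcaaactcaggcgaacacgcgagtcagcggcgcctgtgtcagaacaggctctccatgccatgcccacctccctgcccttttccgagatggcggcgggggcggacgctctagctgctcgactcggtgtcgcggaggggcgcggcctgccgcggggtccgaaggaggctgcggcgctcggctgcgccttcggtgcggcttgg

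Prps1 and Prps2, both on the X chromosome, encode the PRPP synthetases themselves. Prps1 stood at 45.9, 40.7, 50.9 and 55.3 CPM in the proliferating libraries and at 16.3, 19.4, 22.1 and 19.5 CPM in the quiescent libraries. Prps2 stood at 62.7, 58.3, 57.2 and 62.7 CPM in the proliferating libraries and at 25.7, 44.7, 32.5 and 34.2 CPM in the quiescent libraries. Each was lower in every quiescent library, Prps1 by 1.32 (SE 0.11, adjusted p = 2.57e-08) and Prps2 by 0.80 (SE 0.13, adjusted p = 0.000324). In the KO the synthetases differed from each other. Prps1 was at 56.9, 58.9 and 58.97 CPM in the GFP control and 34.9, 29.1 and 25.6 CPM in the KO and fell by 0.96 (SE 0.09, adjusted p = 2.87e-06). Prps2 was at 119, 119 and 119.6 CPM and 126, 124 and 138 CPM, with all KO libraries above the controls but no call (0.11 (SE 0.05, adjusted p = 0.0958), and called at 0.15 with the GC trend removed). Prpsap2, the other associated protein, did not pass in quiescence (-0.19 (SE 0.11, adjusted p = 0.166)) or in the KO (-0.07 (SE 0.08, adjusted p = 0.481)). It was called lower in quiescence by 2 settings, library size alone (-0.32) and the GC trend removed (-0.30).

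Added after results were known, the summed TPM of Prpsap1 and Prpsap2 over that of Prps1 and Prps2 was read in each library. Its log2 value was 0.98, 1.24, 0.88 and 0.88 in the proliferating and 4.90, 4.28, 4.44 and 4.52 in the quiescent libraries. On a linear scale the associated proteins' mRNA went from 1.99 times that of the synthetases to 23.2 times. In the GFP control the log2 value was -0.15, -0.21 and -0.18 and in the KO 0.22, 0.20 and 0.28, from 0.884 to 1.17 times. The groups did not overlap in either table.

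All 6 genes of purine synthesis up to IMP fell in quiescence (median -0.94), and 5 of 6 fell in the KO (median -0.65). Ppat (ENSMUSG00000029246, chromosome 5, 77061096 to 77099425), the amidotransferase that commits PRPP to the pathway, is described first. Ppat stood at 21.5, 20.98, 21.1 and 21.00 CPM in the proliferating libraries and at 13.1, 12.6, 12.4 and 11.9 CPM in the quiescent libraries. The fall was 0.76 (SE 0.10, adjusted p = 5.9e-06). Levels of 68.1, 67.6 and 68.8 CPM were found in the GFP control and of 38.02, 41.6 and 27.7 CPM in the KO. It fell there by 0.93 (SE 0.11, adjusted p = 6.47e-05), the largest fall of this group in the KO. Gart, a trifunctional enzyme that includes a folate-dependent step, fell by 1.14 (SE 0.06, adjusted p = 2.44e-10) and by 0.75 (SE 0.07, adjusted p = 2.23e-06). Adsl, which acts both here and in AMP formation, had the largest fall of the group in quiescence, 1.45 (SE 0.07, adjusted p = 1.78e-11), and fell by 0.56 (SE 0.08, adjusted p = 4.86e-05) in the KO. Atic, which closes the purine ring with folate-bound carbon, fell by 0.87 (SE 0.06, adjusted p = 2.41e-09) and by 0.76 (SE 0.07, adjusted p = 1.81e-06).

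Pfas, the amidotransferase that makes the amidine intermediate, gave different results in the comparisons. Pfas stood at 130.3, 130.4, 131 and 122 CPM in the proliferating libraries and at 61.1, 61.8, 61.8 and 71.3 CPM in the quiescent libraries. It fell 2.01-fold (SE 0.06 on the log2 scale, adjusted p = 4.23e-10). In the GFP control it stood at 106, 107 and 110.5 CPM and in the KO at 103, 103 and 102 CPM. All 3 KO libraries were below the controls, but the difference was small and not called (-0.08 (SE 0.05, adjusted p = 0.225)). Paics, a bifunctional carboxylase and synthetase, changed least in quiescence. Paics stood at 140.5, 151, 138 and 153 CPM in the proliferating libraries and at 103, 103, 101 and 105 CPM in the quiescent libraries. It fell by 0.50 (SE 0.05, adjusted p = 2.93e-07) in quiescence and by 0.30 (SE 0.05, adjusted p = 0.000173) in the KO.

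Ppat and Paics act in the same pathway and lie head to head on chromosome 5. On GRCm39 the deposited gene models overlap by 272 bases (77099154 to 77099425), and the library kit is named as stranded, while the strand setting of the counting is not given in the sources used here. Their RefSeq starts on GRCm38.p6 are separated by 275 bases, and each window runs upstream, away from the other, with 177 bases between the windows. Because each start lies inside the other gene, each window also lies inside the other gene. The windows are shown for the letters upstream of each start.
Ppat promoter (chr5:76951529-76951828, minus strand): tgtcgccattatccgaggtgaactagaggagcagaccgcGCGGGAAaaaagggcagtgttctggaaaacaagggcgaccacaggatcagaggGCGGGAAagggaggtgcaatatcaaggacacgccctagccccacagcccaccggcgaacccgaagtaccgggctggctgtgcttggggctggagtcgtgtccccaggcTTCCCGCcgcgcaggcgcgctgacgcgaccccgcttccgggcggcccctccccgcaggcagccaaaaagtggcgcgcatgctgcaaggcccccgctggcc
Paics promoter (chr5:76951052-76951351, plus strand): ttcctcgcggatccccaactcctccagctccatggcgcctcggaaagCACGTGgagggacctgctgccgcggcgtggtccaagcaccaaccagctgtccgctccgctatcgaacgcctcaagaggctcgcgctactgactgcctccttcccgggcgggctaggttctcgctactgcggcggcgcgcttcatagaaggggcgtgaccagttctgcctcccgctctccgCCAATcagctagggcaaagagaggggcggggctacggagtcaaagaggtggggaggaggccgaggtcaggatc
The Ppat window holds E2F-type letters 3 times, beginning 211, 158 and 50 bases before the start. The Paics window holds an E-box 203 bases and a CCAAT 23 bases before the start. The log2 ratio of Ppat to Paics TPM, read after results were known, was -3.55, -3.44, -3.52 and -3.63 in the proliferating and -3.65, -3.68, -3.70 and -3.69 in the quiescent libraries. In the GFP control it was -2.71, -2.84 and -2.89 and in the KO -3.39, -3.16 and -3.77. The ratio was lower without overlap in both comparisons, by -0.63 in mean log2 ratio in the KO and by -0.15 in quiescence, and the difference between these was not tested.

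The branch from IMP to GMP was lower in both comparisons for its 3 genes. Impdh2 (ENSMUSG00000062867, chromosome 9, 108437485 to 108442783), the inosine monophosphate dehydrogenase typical of dividing cells and a target of immunosuppressive drugs, was the third most abundant member in the GFP control. Impdh2 stood at 239, 256, 236 and 238 CPM in the proliferating libraries and at 112, 104, 111 and 119.5 CPM in the quiescent libraries. It fell by 1.12 (SE 0.05, adjusted p = 1.86e-11). The GFP control libraries held 209.8, 208 and 218 CPM and the KO libraries 142, 149 and 118 CPM. It fell there by 0.63 (SE 0.07, adjusted p = 1.74e-05). Its relative Impdh1 fell by 1.24 (SE 0.07, adjusted p = 4.24e-10) and by 0.54 (SE 0.09, adjusted p = 0.000239). Gmps, the GMP synthetase, was weakly counted in the first table and gave overlapping groups. Gmps stood at 16.3, 15.3, 16.2 and 12.8 CPM in the proliferating libraries and at 11.6, 14.01, 10.1 and 9.35 CPM in the quiescent libraries. Its fall was 0.42 (SE 0.14, adjusted p = 0.0182), a call lost without quiescent replicate 3 (-0.32) or 4 (-0.28) or proliferating replicate 4 (-0.39), and with DESeq2 (-0.39) or limma (-0.31), while the value was -0.78 with the GC trend removed. In the KO, where the counts were higher, Gmps fell by 0.53 (SE 0.07, adjusted p = 2.75e-05) with the groups apart.

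The salvage enzymes for purine bases, Hprt and Aprt, fell in quiescence. Hprt, which recovers hypoxanthine and guanine, had 23 counts in its lowest quiescent library. Hprt stood at 11.2, 9.16, 9.66 and 11.2 CPM in the proliferating libraries and at 3.72, 4.91, 7.49 and 3.63 CPM in the quiescent libraries. The fall was 1.07 (SE 0.21, adjusted p = 0.000395). In the KO it fell by 0.24 (SE 0.08, adjusted p = 0.0192), with 56.1, 55.3 and 56.5 CPM in the GFP control and 43.3, 53.6 and 44.9 CPM in the KO, and this call was lost without GFP control replicate 1 or 3 or KO replicate 1 (-0.19 without the last) and with the GC trend removed (-0.18), DESeq2 (-0.25), limma (-0.25) or all 14 libraries in 1 fit (-0.27). Aprt, which recovers adenine, fell by 0.61 (SE 0.07, adjusted p = 7.67e-07) in quiescence. Its groups overlapped in the KO (-0.25 (SE 0.13, adjusted p = 0.108)), and it was called lower without GFP control replicate 1 (-0.36) and with the GC trend removed (-0.33).

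The 4 genes of pyrimidine nucleoside salvage did not move as 1 group. Upp1, a uridine phosphorylase that splits uridine into uracil and ribose phosphate, had 17 counts in its lowest quiescent library. Upp1 stood at 11.3, 9.71, 11.2 and 10.7 CPM in the proliferating libraries and at 2.75, 3.503, 3.25 and 2.65 CPM in the quiescent libraries. It fell by 1.81 (SE 0.18, adjusted p = 2.14e-07), or 3.500-fold. Its values in the second table were 3.56, 3.75 and 5.55 CPM in the GFP control and 4.14, 3.98 and 4.07 CPM in the KO. Those groups overlapped and the gene was not called (-0.08 (SE 0.22, adjusted p = 0.769)). Uck1, Uck2 and Uckl1 encode uridine-cytidine kinases or a relative of them. Uck2 was at 103, 111, 108 and 116 CPM in the proliferating and 82.8, 83.2, 90.97 and 75.5 CPM in the quiescent libraries and fell by 0.40 (SE 0.06, adjusted p = 3.63e-05).

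In the second table Uck2 was at 107, 104 and 104 CPM in the GFP control and 58.1, 67.1 and 42.2 CPM in the KO, and fell by 0.91 (SE 0.15, adjusted p = 0.00184), the lowest value again in replicate 3. Uckl1 rose in both comparisons. Uckl1 stood at 21.3, 24.2, 22.7 and 19.9 CPM in the proliferating libraries and at 31.04, 28.3, 26.04 and 25.96 CPM in the quiescent libraries. It rose by 0.34 (SE 0.10, adjusted p = 0.00616) in quiescence, a call lost with library size alone (0.20), and by 0.51 (SE 0.15, adjusted p = 0.0103) in the KO, a call lost with DESeq2. Uck1 fell slightly in quiescence (-0.20 (SE 0.05, adjusted p = 0.00291)), a call lost without quiescent replicate 2 (-0.09), 3 (-0.15) or 4 (-0.13) and with the GC trend removed (-0.05). It was not called in the KO (0.13 (SE 0.09, adjusted p = 0.28)).

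Among the 75 other nucleotide genes, 54 could be tested in quiescence, where 24 were lower and 16 higher (median -0.18), and 55 in the KO, where 27 were lower and 10 higher (median -0.32). The share lower was 44.4% in quiescence, beside 35.5% of all genes tested, and 49.1% in the KO, beside 26.2%. The folate steps that feed thymidylate and purine synthesis fell together, 8 of 8 in quiescence and 7 of 8 in the KO, with Aldh1l1, which oxidises formyl folate, rising in the KO (0.28 (SE 0.06, adjusted p = 0.00188)). Mthfd1l, the mitochondrial enzyme that releases formate, fell by 2.43 (SE 0.08, adjusted p = 5.81e-13) and by 0.84 (SE 0.13, adjusted p = 0.000775). Shmt2 and Mthfd2, the mitochondrial serine and folate enzymes, fell by 1.11 and 1.66 in quiescence and by 1.03 and 0.95 in the KO.

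The other lists held changes in both directions. Of 16 breakdown genes tested in quiescence 3 were lower and 5 higher and 8 were not called, beside 65.4% called among all genes. Dctd, the deaminase that turns dCMP into the dUMP used for thymidylate, fell by 3.38 (SE 0.18, adjusted p = 9.37e-11) and by 1.04 (SE 0.13, adjusted p = 1.77e-05), close to the values of Rrm2 and Tk1. Entpd5, an endoplasmic reticulum nucleoside diphosphatase, rose by 1.73 (SE 0.05, adjusted p = 1.23e-13) in quiescence and by 0.23 (SE 0.07, adjusted p = 0.011) in the KO. Upp2, the other uridine phosphorylase, rose by 1.73 (SE 0.28, adjusted p = 5.43e-05) in quiescence, opposite to Upp1, from 1.16, 1.32, 0.977 and 0.918 CPM to 2.91, 3.503, 3.91 and 4.33 CPM, and did not pass the filter on low counts in the second table.

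Of 19 interconversion genes, 8 were lower and 5 higher in quiescence (68.4% called, beside 65.4% of all genes), and 8 lower and 3 higher in the KO (57.9%, beside 51.6%). Gmpr, the reductase that returns GMP to IMP, rose in both, by 1.26 (SE 0.07, adjusted p = 1.63e-09) and by 1.08 (SE 0.15, adjusted p = 0.000121), while the enzymes from IMP to GMP fell. Ak1, a cytosolic adenylate kinase, also rose in both, by 0.63 (SE 0.05, adjusted p = 1.28e-08) and by 0.92 (SE 0.13, adjusted p = 0.000631). Adk, the adenosine kinase, had overlapping groups in quiescence (-0.01 (SE 0.08, adjusted p = 0.926)) and fell by 0.58 (SE 0.09, adjusted p = 0.000132) in the KO. Slc29a1, an equilibrative nucleoside transporter, rose by 0.63 (SE 0.06, adjusted p = 8.6e-08) in quiescence and fell by 0.82 (SE 0.10, adjusted p = 1.79e-05) in the KO, and its relative Slc29a2 fell by 1.41 (SE 0.12, adjusted p = 3.24e-08) and by 0.36 (SE 0.14, adjusted p = 0.0449). Rrm2b, the small reductase subunit that serves cells outside S phase, was at 1.58, 0.442, 1.19 and 0.689 CPM in the proliferating and 1.13, 4.32, 2.28 and 2.37 CPM in the quiescent libraries. These groups overlapped, with a log2 fold change of 1.38 (SE 0.44, adjusted p = 0.0116), and in the KO, where it was better counted, it rose by 0.32 (SE 0.10, adjusted p = 0.0129).

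Whether a gene's change in the KO differed from its change in quiescence was tested in 1 fit over the 14 libraries, in which the comparisons share no control libraries. Of the 38 genes 23 differed (60.5%), beside 38.9% of the 13580 genes tested. The KO change minus the quiescence change was above 0 for 19 members, beside 21.0% of all genes, and below 0 for 4, beside 18.0%. Of the 25 genes that fell in both, 15 fell less in the KO, 2 (Nme2 and Uck2) fell more, and for 8 the difference did not pass. Scaling moved the centre of this contrast: the median over all genes was 0.01, -0.09 with RLE size factors and 0.16 with library size alone, and the share of calls above 0 was 53.8%, 41.9% and 70.7%. The members above and below 0 were then 17 and 5 with RLE and 25 and 3 with library size alone. In the quiescence comparison itself the share of all calls that were higher went from 45.7% to 35.1% with library size alone, and 32 members were lower and 2 higher.

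The differences above 0 were largest for Rrm2 and Tk1, followed by Upp1 and Cmpk2. Rrm2 differed by 2.28 (SE 0.22, adjusted p = 1.43e-06) and Tk1 by 2.14 (SE 0.20, adjusted p = 2.44e-07) on the log2 scale, Dut by 1.16 (SE 0.15, adjusted p = 4.02e-06), and Rrm1 and Umps by 1.02 (SE 0.14) and 1.01 (SE 0.13). Upp1 differed by 1.67 (SE 0.26, adjusted p = 3.54e-05) and Cmpk2, which changed in opposite directions, by 1.44 (SE 0.24, adjusted p = 8.24e-05). Pfas and Prps2, which fell in quiescence and were not called in the KO, differed by 0.88 (SE 0.09, adjusted p = 7.19e-08) and 0.86 (SE 0.14, adjusted p = 7.43e-05). Below 0 lay Prpsap1 at -2.47 (SE 0.08, adjusted p = 3.3e-15), Cmpk1 at -0.70 (SE 0.12, adjusted p = 6.17e-05), Uck2 at -0.56 (SE 0.16, adjusted p = 0.00979) and Nme2 at -0.30 (SE 0.11, adjusted p = 0.0337). The Nme2 call was lost without quiescent replicate 1, proliferating replicate 4, GFP control replicate 1 or 3, or KO replicate 1 or 3, and its value was -0.15 with library size alone. Among the differences above 0, the Dck call (0.48) was lost without quiescent replicate 1 or 2, proliferating replicate 5, or KO replicate 1 or 2. It was also lost without any 1 of the GFP control replicates, with RLE size factors (0.38) and with the GC trend removed (0.80). The Gart call (0.34) was lost without KO replicate 1 or 2 and with RLE size factors (0.24). Ppat, Paics and Atic of the purine pathway, Prps1 and Gmps were among the 15 that did not pass, with Ppat at -0.21 (SE 0.16, adjusted p = 0.313) and Atic at 0.06 (SE 0.11, adjusted p = 0.692). The size of the fall in cell cycle markers also differed between the comparisons, 12 of 14 above 0 (median 1.54).

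**Figure D3:**
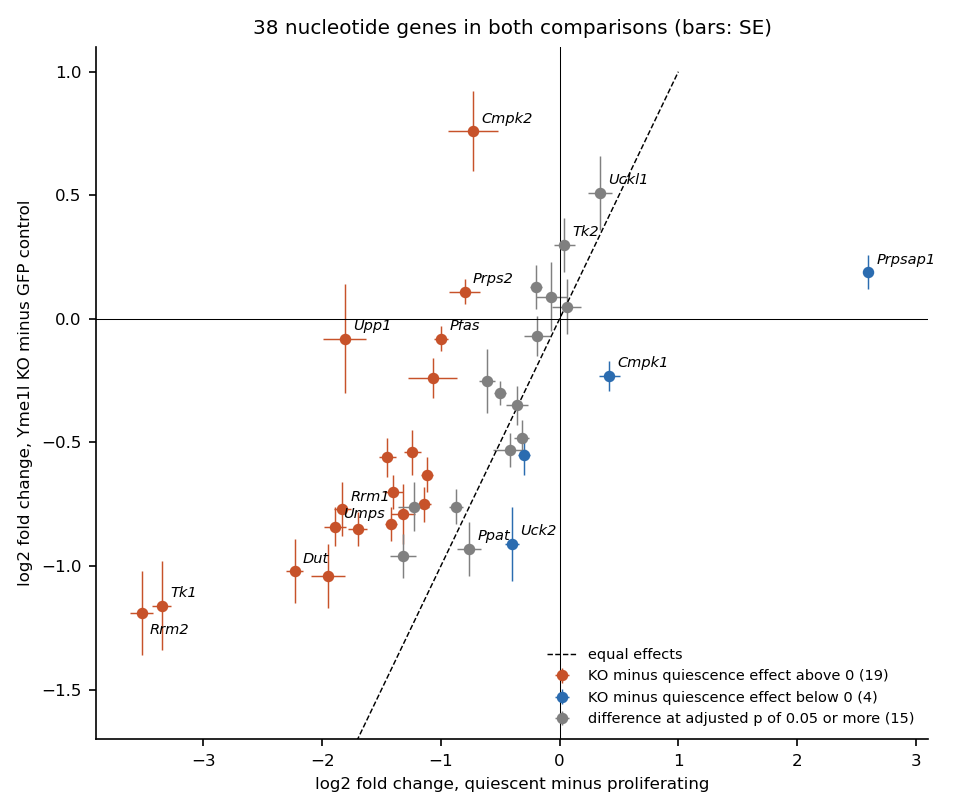
Log2 fold change in quiescence (x axis) against log2 fold change in the KO (y axis) of the 38 genes, with SE bars and a dashed line of equal effects. Orange marks the 19 genes with a KO change above the quiescence change, blue the 4 below it and grey the 15 not called, and Rrm2, Tk1 and Prpsap1 lie farthest from the line.

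Ratios between related genes were read within each library, which cancels library scaling. The log2 ratio of Tk1 to Tk2 TPM was 2.36, 2.30, 2.40 and 2.20 in the proliferating and -1.28, -0.91, -0.97 and -1.31 in the quiescent libraries. Proliferating cells therefore held more Tk1 than Tk2 mRNA per length and quiescent cells less, at 4.97 times and 0.46 times. In the GFP control the log2 ratio was 3.08, 3.19 and 3.39 and in the KO 2.08, 2.19 and 1.23, so that Tk1 stayed the more abundant in the KO, at 3.56 times. The ratio of Ctps to Ctps2 crossed in the same way, from 1.11, 1.60, 1.38 and 0.86 to -0.91, -0.54, -0.36 and -0.44 in quiescence, and went from 1.43, 1.39 and 1.36 to 0.76, 0.44 and 0.13 in the KO without crossing.

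Prps1 to Prps2 overlapped between proliferating (0.30, 0.29, 0.46 and 0.51) and quiescent libraries (0.33, -0.22, 0.43 and 0.17). In the second table it went from -0.08, -0.11 and -0.04 in the GFP control to -0.92, -1.14 and -1.46 in the KO, from 0.949 to 0.444 times. Uck1 to Uck2 also overlapped in the first table, and in the second it went from -0.72, -0.62 and -0.47 to 0.62, 0.46 and 1.06, so that Uck2 was the more abundant per length in each control library and Uck1 in each KO library. Impdh1 to Impdh2 overlapped in both tables, with Impdh2 the higher in all 14 libraries (log2 ratio from -3.48 to -2.47). Cmpk1 to Cmpk2 moved in opposite directions, by 1.26 in quiescence and -1.39 in the KO, without overlap in either. These ratios are descriptions, and differences between the tables in them were not tested.

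**Figure D4:**
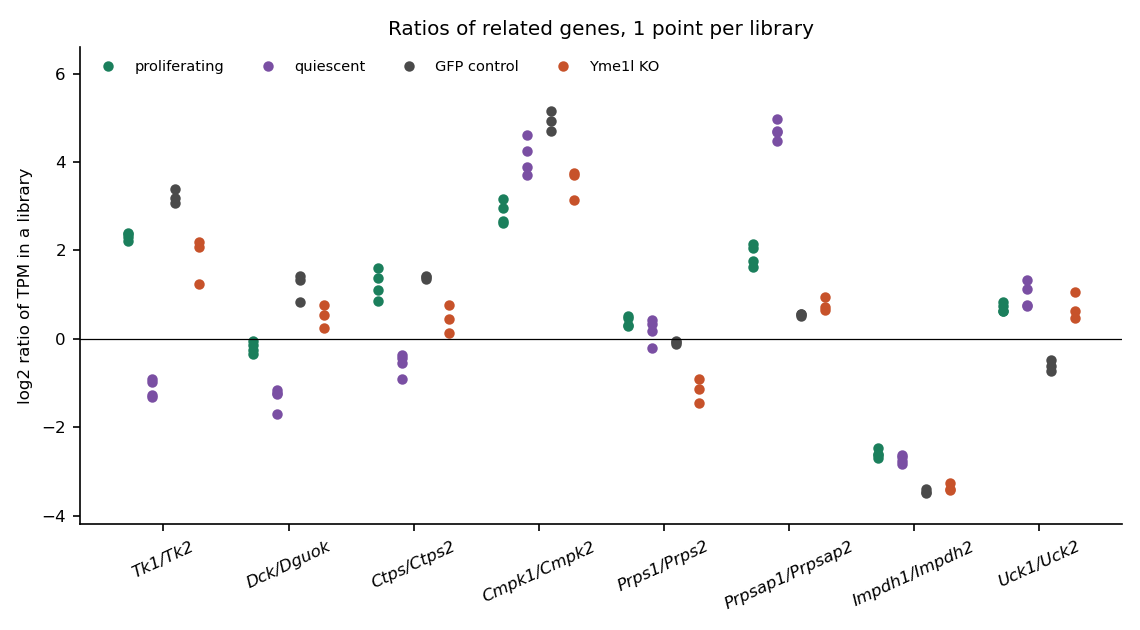
Log2 ratio of TPM (y axis) for 8 pairs of related genes (x axis), 1 point per library, coloured by group. Tk1/Tk2 lies above 0 in proliferating libraries (2.20 to 2.40) and below 0 in quiescent ones (-1.31 to -0.91), and Prps1/Prps2 is lowest in the KO (-1.46 to -0.92).

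Summed over the 38 genes, the level was 3184 ± 70.4 TPM (SD, n = 4) in proliferating and 2442 ± 63.00 TPM (SD, n = 4) in quiescent cells, and 3112 ± 64.6 TPM (SD, n = 3) in the GFP control and 2116 ± 192 TPM (SD, n = 3) in the KO. Without Prpsap1 the first pair was 3061 and 1681 TPM and the second 3050 and 2045 TPM. Prpsap1 made up 52.3% of the summed TPM of the PRPP genes in proliferating and 92.2% in quiescent cells, and 27.8% and 34.1% in the GFP control and the KO. Nme2 was the most abundant member in the proliferating, GFP control and KO groups, with the caution on its read-through neighbour. The summed level of the reductase and pool control genes was 551 ± 11.3 TPM in proliferating and 131 ± 12.6 TPM in quiescent cells, and 658 ± 4.55 and 335 ± 72.1 TPM in the second table. Between libraries of a group, the median coefficient of variation of the members' CPM was 5.47% (proliferating), 8.69% (quiescent), 3.05% (GFP control) and 10.7% (KO).

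For 23 of the 38 genes the same protein-coding transcript held over 80% of the gene's estimated counts in all 4 groups, and for 13 over 95%. The transcript shares below are pooled over a group or given per library, and are model estimates of the quantification. Prpsap1-201 held 93.2% in proliferating and 92.2% in quiescent cells, so the 6.07-fold rise was a rise of this transcript. Impdh1-201 held 68.9, 67.3, 49.1 and 69.3% in the proliferating and 95.8, 89.4, 75.9 and 71.5% in the quiescent libraries, without overlap. Ctps2-206 held 20.3, 26.3 and 27.4% in the GFP control and 8.94, 11.00 and 9.06% in the KO, also without overlap, while the total of Ctps2 was not called. Dguok-201 held 66.5, 71.3 and 69.3% and 55.6, 59.1 and 60.1% there, and the retained-intron transcript Dguok-208 6.19, 11.7 and 12.8% and 13.7, 16.00 and 23.2%. Gart-209 held 78.5%, 75.1%, 79.3% and 83.2% in the proliferating, quiescent, GFP control and KO groups and overlapped in both comparisons.

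Levels of the same gene were not compared between the tables, because members with low GC content were counted less in the first table. Over the 38 genes, the log2 ratio of proliferating to GFP control TPM followed the GC content of the transcripts (Spearman 0.76 over 38 genes, and 0.72 over 10925 genes above 1 TPM in every group, as descriptions over genes that share libraries). It ran from -3.00 for Gmps (39.0% GC) and -2.53 for Hprt (40.1%) to 1.64 for Aprt (58.5%), although both groups grew in FGF and EGF. The groups differ in virus and in table, and these cannot be told apart. Within a table the members' log2 fold changes did not follow GC (Spearman -0.02 in quiescence and -0.01 in the KO). With each library's GC trend removed, 31 members were lower and 3 higher in quiescence and 26 and 4 in the KO, the same numbers as before, though not the same genes. In quiescence Prpsap2 gained a call and Uck1 lost one. In the KO Prps2 (higher) and Aprt (lower) gained a call, and Prpsap1 and Hprt lost theirs. The errors of low-GC members went either way between the tables: Hprt had SE 0.21 in quiescence and 0.08 in the KO, and Dck (41.2% GC) 0.10 and 0.12.

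**Figure D5:**
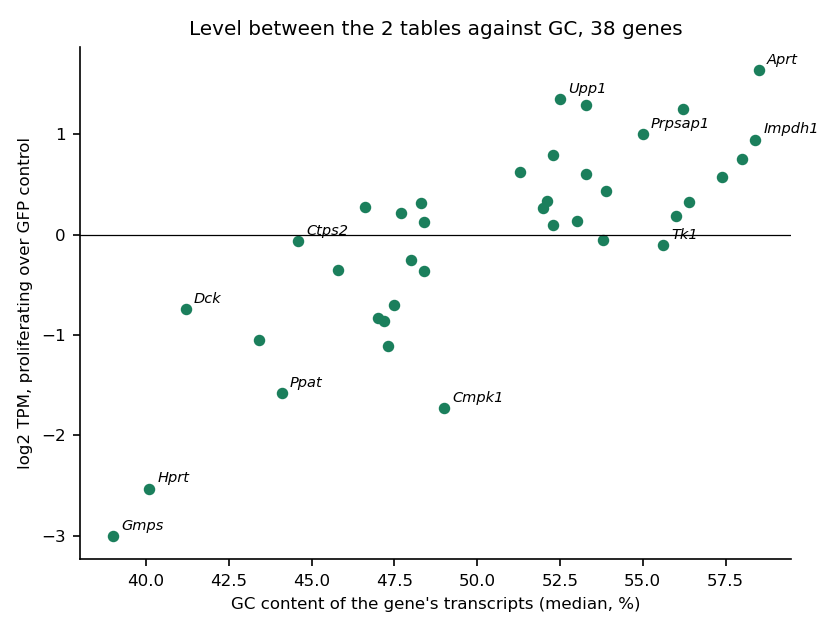
Log2 ratio of mean TPM in proliferating over GFP control cells (y axis) against the median GC content of the gene's transcripts in percent (x axis), 1 point per member. Gmps and Hprt lie lowest, at -3.00 and -2.53, and Aprt highest, at 1.64.

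The authors' deposited log2 fold changes for the first comparison run as proliferating against quiescent, so their signs were turned here before use. The authors' deposited table of adjusted p-values then called 27 members lower and 3 higher in quiescence and 23 lower and 1 higher in the KO at the same threshold. All 30 of its calls in quiescence and all 24 in the KO were also called here. Called here but not in the authors' deposited table were Samhd1, Nme1, Gmps and Uck1 in quiescence and Samhd1, Tk2, Nme1, Prpsap1, Hprt and Uckl1 in the KO. The signs of the log2 fold changes matched the authors' for 38 of 38 members in quiescence, after that turn. They matched for 37 of 38 in the KO, where no turn was needed, the exception being Dguok.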

How the data were processed

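Poly-A RNA of 14 libraries in 4 groups was read from the deposited salmon tables, 1 set for quiescent and proliferating cells and 1 for the GFP control and the KO. Columns were matched to samples by the read-file IDs in the deposited sample sheets, which equal the IDs in the sample labels. For some proliferating libraries the replicate number of the column differs from that of the label, and the label's number is used here. The authors deposited estimated counts (expected counts per gene and transcript) and TPM values per gene. They also deposited, per the file headers, log2 fold changes and adjusted p-values of their own comparisons. The build is GRCm39 and DESeq2 1.30.1 in R 4.0.3 is named, per the submitters' processing notes. The quantifier's version is not given in the sources used here.

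Here the estimated counts were rounded and tested per table in edgeR 4.0.16 (R 4.3.3) with TMM, filterByExpr and a robust quasi-likelihood fit, and Benjamini-Hochberg adjustment over all genes tested. A call is an adjusted p under 0.05. The SE was obtained by dividing the size of the log2 fold change by the root of the F statistic. The difference between the comparisons was a contrast in 1 fit over 14 libraries. Ratios and transcript shares are descriptions. The procedure was tested on simulated data. Depth per library was 8331995 to 8992697 counts (proliferating), 6475092 to 8797741 (quiescent), 9226070 to 10320727 (GFP control) and 9053122 to 9490735 (KO). GC content came from transcripts of GENCODE M21 by gene identifier and covered all 38 members. Promoters came from a RefSeq table on GRCm38.p6 and their coordinates were not converted.

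The members, the lists of other nucleotide genes and markers, and the tests were chosen with earlier results of these data known. All members could be named. The text names the largest changes of each group, the members that moved against it, and other pathway genes that passed the filter. Alternatives were RLE size factors, library size alone, DESeq2 1.42.0, length-scaled counts, limma 3.58.1 on log2(TPM + 1), no low count filter, all 14 libraries in 1 fit, a replicate block and leaving out each library. Removing each library's GC trend (lowess, span 0.3) was added after the data were seen.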

Additional observations from a re-analysis of the deposited data

Results flagged for a closer look

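In the groups of 4 libraries, a library was singled out where its gap to the nearest of the others was too large a share of the group's whole range by Dixon's test at the 95% level. Of 76 combinations of gene and group, 5 were singled out, and chance gives about 1 in 20. Groups of 3 were not tested in this way.

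Cmpk1 stood at 33.8 CPM in quiescent replicate 4, beside 40.5 to 40.7 CPM in the other quiescent libraries, and this library was nearest to the proliferating ones. Pfas was the gene singled out in both groups of the first table, with 122 CPM in proliferating replicate 5 beside 130 to 131 CPM, and 71.3 CPM in quiescent replicate 4 beside 61.1 to 61.8 CPM. Each of these lies toward the other group, and the groups still did not overlap. Impdh2 reached 256 CPM in proliferating replicate 2, beside 236 to 239 CPM. For Ppat the distance was small in size, 21.5 CPM in proliferating replicate 1 beside 21.0 CPM in the rest. The quiescence calls of Cmpk1, Pfas, Impdh2 and Ppat held when any 1 of the 8 libraries was left out.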

How the results depend on the processing

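In quiescence, 28 to 32 members were lower and 2 or 3 higher under every alternative run, and in the KO 23 to 26 were lower. The members higher in the KO depended more on the setting: 4 as reported, 1 with DESeq2, 2 with limma on log2(TPM + 1) and 2 with all 14 libraries in 1 fit. Leaving out 1 library at a time gave 29 to 31 lower in quiescence and 3 higher, 25 or 26 lower in the KO and 2 to 4 higher, and 17 to 21 above 0 and 3 or 4 below 0 for the difference between the comparisons. No called member changed sign under any alternative. Of 646 single values in quiescence 15 lost and 2 gained a call, of 570 in the KO 28 lost and 3 gained one, and of 684 for the difference 20 lost and 15 gained one. They belonged to 7, 8 and 10 genes, and the cause was not tested.

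The replicate numbers did not pair the libraries: same-numbered quiescent and proliferating libraries had correlations of -0.285, -0.322 and 0.0379 in their deviations from the group means, and same-numbered GFP control and KO libraries 0.0428, -0.0453 and -0.0212. Differently numbered quiescent and proliferating libraries ran from -0.346 to 0.544, the highest being quiescent replicate 2 with proliferating replicate 1. Differently numbered GFP control and KO libraries ran from -0.0427 to 0.057. The cause of these correlations was not tested. With a replicate block, 29 members were lower and 2 higher in quiescence, and 26 and 4 in the KO. The calls lost with it in quiescence were those of Cmpk2 (-0.61, adjusted p = 0.0878 in edgeR's quasi-likelihood test), Gmps (-0.46, adjusted p = 0.0612) and Uckl1 (0.32, adjusted p = 0.0561). The rarest members in the first table, Upp1 and Cmpk2 (17 counts in their lowest library) and Hprt (23), had the widest errors in quiescence. The cause of their low counts was not tested.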
